A study of Mus musculus with 4 samples.

Results

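Endothelial cells of the mouse choroid, the vessel bed behind the retina, were taken from droplet single-cell RNA sequencing (10x Genomics) of tissue containing the retinal pigment epithelium (RPE) and the choroid. A barcode was kept if it held 300 or more genes and no more than 30% of its UMIs (unique molecules counted) came from mitochondrial genes. Members were chosen by the UMIs of marker genes, which are therefore no finding: a kept barcode counted as a member when at least 4 of 10 endothelial markers had a UMI, fewer than 4 of the 5 fibroblast genes Col1a1, Col3a1, Dcn, Lum and Pdgfra were detected, and the 5 RPE genes Rpe65, Rlbp1, Ttr, Rgr and Rdh5 summed to under 0.5% of its UMIs. The rule found 175 members among 6555 kept barcodes (7943 barcodes in all). It had no step that separates vessel cells of the choroid from those of the retina. Whether retinal vessel cells are among the members was not tested. There were 4 libraries of the posterior eye, 1 per group: Vldlr-/- mice (VKO, without the receptor for very low density lipoprotein) at 1 month and at 2 months, and wild-type mice (WT) at the same ages. The anterior eye and neural retina were removed, the RPE and choroid were scraped from the sclera, digested with collagenase A, Dispase II and trypsin, and dead cells were depleted before loading. The animals per library, their sex and strain, and the deleted part of Vldlr are not stated in the sources.

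The choroid feeds the outer retina. Its innermost layer, the choriocapillaris, is a sheet of wide, fenestrated capillaries whose pores are spanned by diaphragms made of Plvap, and it is kept open by VEGF that the RPE secretes toward the VEGF receptor Kdr. Larger arteries and veins lie behind it, wrapped by mural cells (pericytes and smooth muscle). Mice without Vldlr are known for new vessels that grow in the outer retina and under it, which is why the state of the vessel lining in this model is of interest.

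At 2 months, 77 of 1140 kept VKO barcodes were members (6.75%, exact binomial 95% interval 5.37 to 8.37), against 71 of 2047 WT barcodes (3.47%, 2.72 to 4.36). At 1 month, 22 of 1819 VKO barcodes (1.21%, 0.759 to 1.83) and 5 of 1549 WT barcodes (0.323%, 0.105 to 0.752) were members. The VKO share was the higher at both ages, but dissection, digestion and the size of every other cell class enter such a share. The genotypes were compared at 2 months, and the 1-month libraries are given as values. With 1 library per group no difference has a replicate check, no test was run, and every interval covers counting error alone. Genotype and library cannot be told apart.

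The libraries held 12022513 UMIs (VKO, 1 month), 11194301 (WT, 1 month), 16292472 (VKO, 2 months) and 23070271 (WT, 2 months). Members had a median of 9127 UMIs in the 2-month VKO library and 9106 in the WT library, with 1078061 and 832532 UMIs in total. No member barcode was shared between libraries.

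The markers that chose the members are given as a description. All 10 were detected in 48 of 77 VKO and 38 of 71 WT members at 2 months. The diaphragm gene Plvap stood at 1646 CPM (member UMIs scaled to a total of 1000000) in VKO and 1688 CPM in WT members, the VEGF receptor Kdr at 1203 and 1109 CPM, and its decoy relative Flt1 at 2556 and 2767 CPM. The junction genes Cdh5 (642 CPM in VKO, 599 in WT) and Cldn5 (934 and 898 CPM) and the surface genes Pecam1, Emcn and Eng were also within 0.10 of 0 on the log2 scale. Egfl7, a secreted vessel factor, was at 1320 CPM in VKO and 1015 CPM in WT members, and Ptprb, the phosphatase that restrains the Tek receptor, at 1899 and 1449 CPM. At the threshold itself, 2 VKO and 5 WT members had exactly 4 markers, and 9 VKO and 8 WT barcodes with exactly 3 stayed outside. A further 22 VKO and 10 WT barcodes with enough markers were left out for fibroblast genes, and 2 and 5 for RPE genes.

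Markers of other cells were present in some members, and they differed between the libraries. At least 3 of 10 mural markers were detected in 21 of 77 VKO and 30 of 71 WT members at 2 months, and the summed mural list stood at 2447 CPM in VKO and 7132 CPM in WT members. The macrophage list stood at 114 CPM in VKO and 252 CPM in WT members, but 139 of the 210 WT macrophage UMIs lay in 1 barcode with 10 macrophage and 4 endothelial markers. In VKO the barcode with most held 37 of 123. Without that barcode in each library, VKO stood at 80.5 CPM and WT at 85.9 CPM. The hemoglobin list was at 693 CPM in VKO and 6.01 CPM in WT members, with 719 of the 747 VKO UMIs in 3 barcodes, and without those VKO stood at 26.4 CPM. The rod list was at 3726 CPM in VKO and 27.6 CPM in WT members. Of the 4017 rod UMIs of the VKO members, 3999 lay in 1 barcode of 106790 UMIs, which carried 4 endothelial markers, all 8 rod markers and 9.91% of the UMIs of all VKO members. Without it the VKO rod level was 18.5 CPM. Values are therefore given for all members and for the 51 VKO and 39 WT members with fewer than 3 mural, fewer than 3 macrophage and fewer than 2 rod markers, called marker-clean members here. In those the mural list stood at 222 CPM in VKO and 114 CPM in WT cells. Their share of kept barcodes was 4.47% in VKO (3.35 to 5.84) and 1.91% in WT (1.36 to 2.60). Marker-clean members had a median of 9115 UMIs in VKO and 5753 in WT, with 611241 and 288561 UMIs in total. The members set aside had medians of 9407.5 and 15128.5 UMIs. Marker-clean ratios are therefore not matched in depth.

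Vldlr itself was scarce in these cells. In the members it had 46 UMIs (42.7 CPM) in the 2-month VKO library, 8 UMIs (9.61 CPM) in the WT library, and 1 and 0 UMIs in the 1-month VKO and WT libraries. The order at 2 months was thus opposite to the genotype labels, with 69.6% of the VKO UMIs in the barcode that carried the rod markers; without that barcode 14 UMIs and a log2 ratio of 0.55 remained. In the other kept barcodes of 2 months Vldlr was lower in the library labelled VKO (33.4 CPM) than in the library labelled WT (147 CPM). Tags outside the deleted part of the gene would check nothing.

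A common vessel programme set the members apart from the remaining kept barcodes. Since the members were gated on endothelial genes, this is a description. Of 3169 genes with at least 50 UMIs in both 2-month member sets, 1062 (33.5%) were at least 2-fold higher in members in both libraries. Adgrl4, an adhesion receptor of vessels, stood at 633 CPM in VKO members against 13.1 CPM in the other VKO barcodes, and at 538 against 3.63 CPM in WT. Cyyr1 reached 608 CPM in VKO and 575 CPM in WT members, and Adgrf5, another adhesion receptor, 811 and 780 CPM. The transcription factors Sox18 (564 CPM in VKO, 351 CPM in WT) and Sox7 (114 and 68.5 CPM) belong here, as do Rasip1, which is needed for vessel lumens (330 and 347 CPM), Vwf, the clotting factor stored by endothelial cells (359 and 362 CPM), and Edn1, the vasoconstrictor endothelin 1 (191 and 332 CPM). Stmn2, a tubulin-binding gene known mainly from neurons, had the largest smaller ratio of all, with 71.4 CPM in VKO members against 1.01 CPM in the other VKO barcodes and 87.7 against 0.954 CPM in WT; it was detected in 27.3% of VKO and 32.4% of WT members. Chrm2, a muscarinic acetylcholine receptor, was also higher in members, at 196 CPM in VKO and 168 CPM in WT members against 5.76 and 2.34 CPM elsewhere.

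Most members carried genes of more than 1 vessel type. At least 2 capillary genes were detected in 98.7% of VKO (lower limit 93.0) and 94.4% of WT members (86.2 to 98.4), at least 2 artery genes in 94.8% (87.2 to 98.6) and 81.7% (70.7 to 89.9), and capillary and artery genes at once in 93.5% (85.5 to 97.9) and 78.9% (67.6 to 87.7). In the other kept barcodes the capillary share was 26.4% in VKO and 21.9% in WT, at median depths of all kept barcodes of 9029 and 8021 UMIs. After each cell was thinned to 2000 UMIs, the artery shares were 76.8% of 69 VKO and 73.8% of 61 WT members, so the difference seen in unthinned cells was not detectable at equal depth. At least 2 barrier genes of neural vessels were detected in 90.9% of VKO and 83.1% of WT members, and in 65.2% and 55.7% after thinning. In the other kept barcodes, not thinned, the barrier share was 67.2% in VKO and 79.8% in WT. The venule genes Ackr1 and Slc38a5 had no UMI in either 2-month member set. Of the lymphatic markers, Prox1 had 0 UMIs in VKO and 4 in WT members and Ccl21a had none, whereas at least 2 lymphatic markers were detected in 8 of 77 VKO members (10.4%, 4.59 to 19.4) and 8 of 71 WT members (11.3%, lower limit 4.99). At 2000 UMIs a cell none of the 69 VKO and 61 WT members carried 2 (upper limits 5.21% and 5.87% at that depth), with fewer UMIs a cell to detect them in.

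Within each library the marker-clean members differed among themselves along the artery genes. This split was added after the data had been seen. After thinning, 20 of 44 VKO and 15 of 31 WT cells had at least 3 of 15 artery genes, and 15 and 12 cells had at most 1. Genes outside the artery list moved with that difference in both libraries. Slc2a1, the glucose transporter of barrier endothelium, stood at 869 CPM in VKO cells with 3 or more artery genes against 265 CPM in VKO cells with at most 1, and at 1739 against 124 CPM in WT. Glul, glutamine synthetase, was at 299 against 74.0 CPM in VKO and 279 against 53.3 CPM in WT, and Pltp, the phospholipid transfer protein, at 469 against 187 CPM and 753 against 266 CPM. Mal, a membrane proteolipid, had 154 and 10 UMIs in VKO and 193 and 1 UMIs in WT. All 5 vein-list genes with at least 30 UMIs in each library were higher with the artery genes in both libraries. So were 4 of 5 barrier-list genes, against 513 of all 1578 genes. The split thus did not set artery apart from vein. Of the 7 capillary-list genes with at least 30 UMIs in each library, 5 lay in the other direction in both libraries, against 27.4% of all 1578 genes. Igfbp3, a secreted IGF-binding protein, was at 1585 CPM in VKO cells with 3 or more artery genes against 4347 CPM in those with at most 1, and at 745 against 2283 CPM in WT. Ednrb, an endothelin receptor of the vascular tone list, was at 108 against 352 CPM in VKO and 90.3 against 702 CPM in WT, and Cd300lg, a capillary receptor, at 52.1 against 239 CPM and 90.3 against 311 CPM. Plvap differed less in VKO, with a log2 ratio of -0.48, than in WT, with -1.94; the difference between the libraries was not tested.

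**Figure D1:**
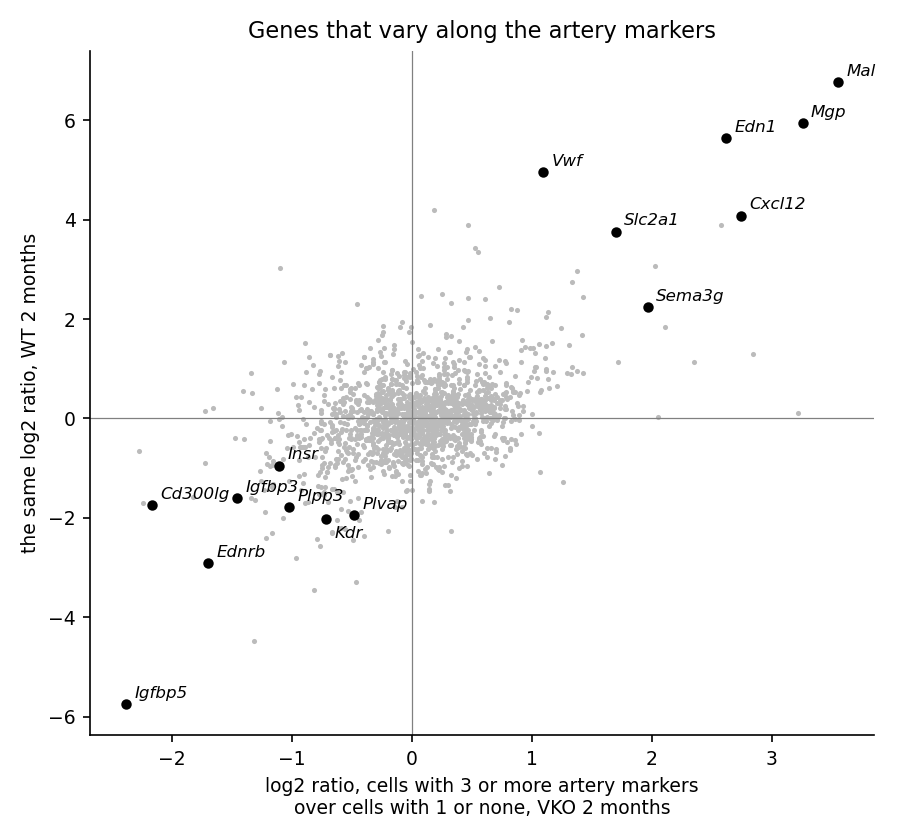
Log2 ratio of summed CPM in marker-clean members of 2 months with 3 or more artery genes over those with at most 1, in VKO (x axis, 20 against 15 cells) and WT (y axis, 15 against 12 cells), for genes with at least 30 UMIs in each library; black points are named. Slc2a1 and the vein-list gene Vwf lie in the upper right, as do artery-list genes such as Mgp (3.26 in VKO, 5.94 in WT), which defined the split. Igfbp3, Ednrb and Cd300lg lie in the lower left. Mal and Igfbp5 rest on 1 UMI in a WT part.

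Most genes were close between the genotypes. Of 8050 genes with at least 30 UMIs in the 2-month members of both libraries together, 531 (6.6%) reached 2-fold in the higher direction in VKO members and 319 (3.96%) in the lower, and the median log2 ratio of VKO over WT was 0.05. Without the barcode that carried the rod genes, 177 genes were 2-fold higher, so that calls in the higher direction made up 38.1% of all calls against 62.5% with it. With at least 6 markers required the share was 40.5%. In marker-clean members 5045 genes passed the count minimum, of which 176 (3.49%) lay 2-fold or more above WT and 131 (2.6%) as far below it, with a median of 0.01. At any size, 54.4% of the genes tested were higher and 45.6% lower in all members, and 50.8% and 49.2% in marker-clean ones. These are the shares to set beside every list count below. A rule on size, detection and spread over cells left 159 genes higher and 231 lower, and the 12 each way with the interval farthest from 0 are described next.

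The sharpest differences were also found in other cells of the same libraries. Gm35082, a long intergenic RNA (GRCm38 chromosome 7, 100675088 to 100677760, plus strand), had 48 UMIs in 24 VKO members and 0 UMIs in WT members, at least 12.4-fold higher against a floor of 3 counts over the WT members. The other kept barcodes had 31.0 CPM in VKO and 0 CPM in WT at 2 months, and 50.0 CPM in VKO and 0.193 CPM in WT at 1 month. Pttg1, securin, which holds sister chromatids together (chromosome 11, 43420250 to 43426251, minus strand), had 4 UMIs (3.71 CPM) in VKO and 64 UMIs (76.9 CPM) in WT members, a log2 ratio of -4.21 (-6.29 to -2.95). It was at 2.95 CPM in the other VKO and 82.6 CPM in the other WT barcodes, and at 15.6 and 67.5 CPM at 1 month. Both genes separated the libraries beyond the endothelium and at both ages, and the cause was not tested.

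Genes higher in VKO members spanned transport, signalling and metabolism. Prickle1, of the planar cell polarity pathway, had 213 UMIs (198 CPM) in VKO and 48 (57.7 CPM) in WT members, a log2 ratio of 1.77 (1.32 to 2.26), and 1.52 in marker-clean members (0.85 to 2.33). It was found in 41 VKO and 26 WT members, and 26.3% of the VKO UMIs lay in 1 cell. Slco1a4, an organic anion transporter known from barrier endothelium, stood at 298 CPM in VKO and 135 CPM in WT members (log2 1.14, 0.83 to 1.47; marker-clean 0.75), whereas in the other barcodes it was lower in VKO, at 153 CPM against 240 CPM. Abcc1, which exports glutathione conjugates, had 37 UMIs in VKO and 5 in WT members (2.40, 1.16 to 4.22). Galk1, the first enzyme of galactose use, had 43 UMIs in 30 VKO members and 8 UMIs in 8 WT members (1.98, 0.95 to 3.35; marker-clean 2.21). Il15, a cytokine that sustains natural killer and memory T cells, had 45 UMIs in VKO and 10 in WT members (1.74, 0.79 to 2.95; marker-clean 2.43). Rasal2, a brake on Ras, was at 570 CPM in VKO and 274 CPM in WT members (1.05; marker-clean 0.63), and Zfp366, a zinc finger gene at 4.25 CPM in the other VKO barcodes, at 157 and 60.1 CPM (1.37; marker-clean 0.78). Clmn and Fam126b were higher by 2.91 and 1.98, Nop56, of the ribosomal RNA methylation machinery, by 1.59 (marker-clean 0.81), and Gdpd3, a lysophospholipase, by 2.16, against -0.028 in marker-clean members. Of these 12 genes, 7 were also at least 2-fold higher in marker-clean members, where the share was 3.49% of all genes tested. Of the 7, Gm35082, Clmn, Abcc1 and Galk1 had fewer than 30 UMIs there and were not among the genes tested. The 3.49% is therefore not their background. Marker-clean members are part of the cells that chose the genes, so the count of 7 is no separate check.

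Of the genes lower in VKO members, some were scarce in marker-clean members and others kept their side there. Tpm2, Myl9 and Gsn, of the contractile and actin machinery, were at 128, 139 and 17.6 CPM in VKO members and at 771, 681 and 125 CPM in WT members, and had 6, 3 and 4 UMIs in VKO and 0, 1 and 0 UMIs in WT marker-clean members. Smarcd3, a chromatin remodelling subunit, and Matn2, a matrix protein, had 2 and 1 UMIs in VKO and none in WT marker-clean members. By contrast Ptgis, prostacyclin synthase, had 7 UMIs in VKO and 51 in WT members (-3.15, -4.62 to -2.09) and 3 and 23 UMIs in marker-clean members (-3.83, -6.40 to -2.30). Lbp, which carries bacterial lipopolysaccharide, had 11 UMIs in VKO and 48 in WT members (-2.45, -3.59 to -1.53; marker-clean -3.69, from 5 and 33 UMIs). Atf3 is described with the immediate early genes. Depp1 was lower by -2.65 in all members and -0.78 in marker-clean ones, the eosinophil attractant Ccl11 had 0 and 1 UMIs in marker-clean cells, and Tbx3os1, annotated as antisense, had 9 UMIs in VKO and 42 in WT members; whether counting used the strand is not given, so its reads cannot be told from those of an overlapping gene. Of these 12 genes, 5 with more than 3 UMIs in either library were also at least 2-fold lower in marker-clean members. The share was 2.6% of all genes tested there, and as above the count is no separate check.

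**Figure D2:**
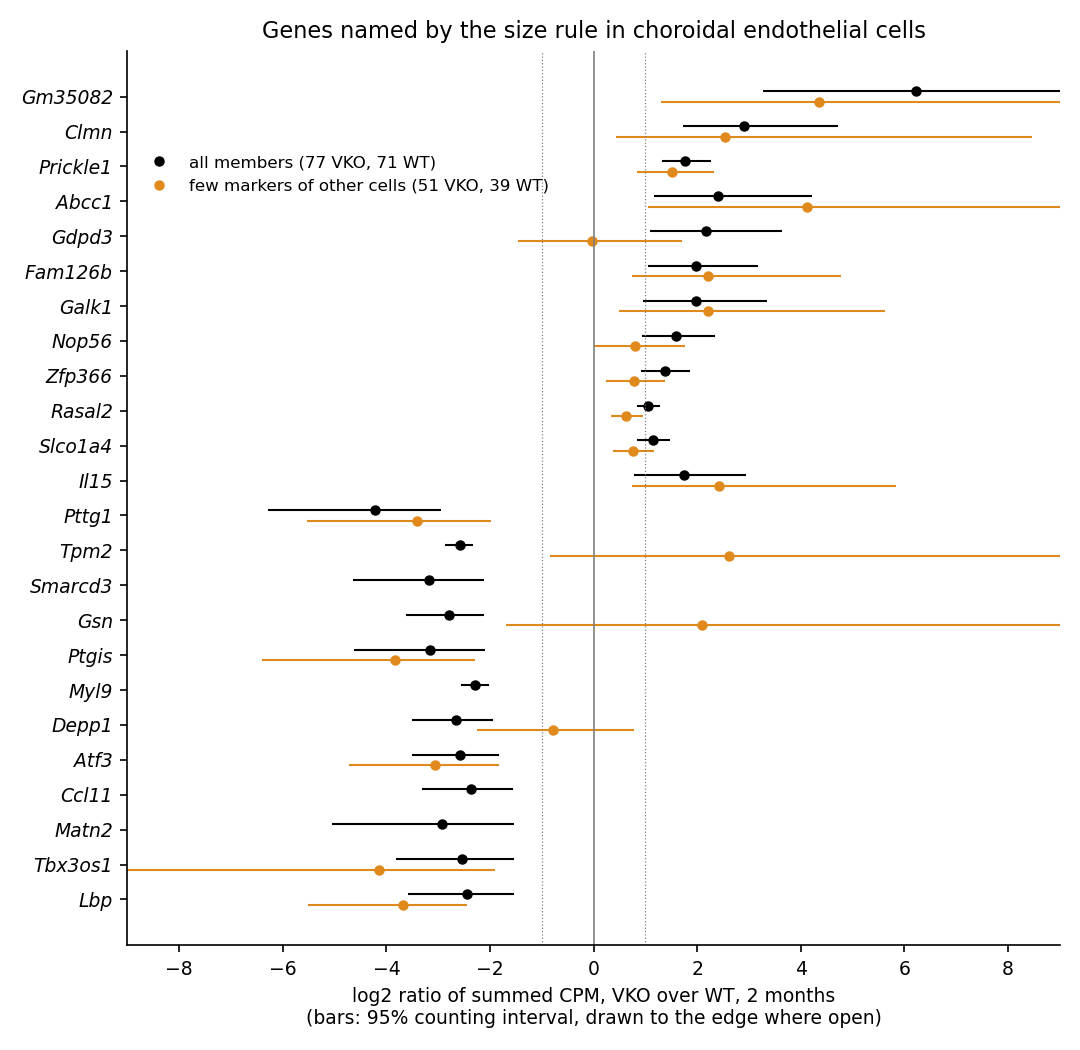
Log2 ratio of VKO over WT (x axis) of the 12 genes each way named by the size rule at 2 months, in all members (black, 77 VKO and 71 WT) and in marker-clean members (orange, 51 VKO and 39 WT), with 95% counting intervals that run to the edge where open; no orange point is drawn where neither library had more than 3 UMIs. Prickle1, Galk1, Il15, Pttg1, Ptgis, Atf3 and Lbp keep their side in marker-clean members, whereas Gdpd3, Tpm2 and Gsn cross 0, Tpm2 and Gsn on 6 and 4 UMIs in VKO and 0 in WT.

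Immediate early genes were lower in VKO members. These genes, many of them transcription factors, are switched on within minutes by growth factors, blood flow and stress, tissue digestion included. Of 20 with enough counts, 4 were higher and 16 lower in VKO members (54.4% and 45.6% of all genes tested), 0 and 4 by at least 2-fold, with a median log2 ratio of -0.57 against 0.05 for all genes. In marker-clean members 2 were higher and 17 lower (50.8% and 49.2% of all genes), with a median of -0.36 against 0.01. Nr4a1, an orphan nuclear receptor, had 94 UMIs (87.2 CPM) in VKO and 178 (214 CPM) in WT members, -1.29 (-1.67 to -0.93), and -1.27 in marker-clean members. Its relative Nr4a3 had 5 UMIs in VKO and 36 in WT members, with 41.7% of the WT count in 1 cell. Atf3, a stress-induced transcription factor, had 16 UMIs (14.8 CPM) in 12 VKO members and 76 UMIs (91.3 CPM) in 25 WT members, -2.59 (-3.50 to -1.83), and -3.05 in marker-clean members. Dusp1, a phosphatase that switches off MAP kinases, was at 259 CPM in VKO and 494 CPM in WT members (-0.93, -1.16 to -0.71; marker-clean -0.90).

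The more abundant genes Jun, Jund, Klf2 and Klf4 were nearer to even than Nr4a1, Atf3 and Dusp1, but not all nearer than the list median. In all members Jund and Klf4 lay past the median of -0.57. In marker-clean members Jun, Jund and Klf4 lay past the median of -0.36. The AP-1 subunits Jun (527 CPM in VKO, 776 in WT; -0.56) and Jund (639 and 1081 CPM; -0.76) and the flow-induced factors Klf2 (1351 and 1778 CPM; -0.40, -0.50 to -0.29) and Klf4 (532 and 799 CPM; -0.59) were lower in VKO members, and marker-clean values were -0.44, -0.62, -0.36 and -0.64. Fos (276 CPM in VKO, 237 in WT; 0.22, -0.04 to 0.49), Egr1 (0.04) and Nr4a2 (0.00) were about level. Per cell, the summed list ran from 384 CPM through a median of 5317 to 12563 CPM in VKO members, and from 0 through 6630 to 18109 CPM in WT members, so the libraries overlapped over most of their range. The median of the list in other cells of the same libraries lay on the other side of 0. It was 0.37 in 133 VKO and 100 WT fibroblast barcodes and 0.10 in 36 VKO and 36 WT mural barcodes. The fibroblast barcodes also held more macrophage and rod RNA in VKO (list medians 3.08 and 1.79). The difference from the members was not tested. In marker-clean members with 3 or more artery genes the median was -0.59, and in those with at most 1 it was -0.19. At 1 month the list summed to 15258 CPM in VKO and 29910 CPM in WT members, from 22 and 5 cells.

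Promoters of immediate early genes are shown because 16 of the 20 members tested were lower in VKO. RefSeq promoters (GRCm38.p6, 250 bases before to 50 after the start) were found for 19 of the 23 listed genes, and 6 of them, Atf3, Btg2, Dusp1, Egr2, Fos and Nr4a3, held TGACGT on either strand (reverse complement ACGTCA), the core of the cyclic AMP response element. Of all 32851 mouse promoters in the table, 2468 (7.51%) held it. The 6 of 19 counts genes with a match in any of their promoters, and the 7.51% counts promoters, so the shares are not in the same unit. Capitals mark the motif on either strand, the letters run 5′ to 3′ on the strand of the gene, and the windows are chr1:191183284-191183583 (minus strand) for Atf3, chr17:26508423-26508722 (minus) for Dusp1 and chr4:48045055-48045354 (plus) for Nr4a3.
Atf3: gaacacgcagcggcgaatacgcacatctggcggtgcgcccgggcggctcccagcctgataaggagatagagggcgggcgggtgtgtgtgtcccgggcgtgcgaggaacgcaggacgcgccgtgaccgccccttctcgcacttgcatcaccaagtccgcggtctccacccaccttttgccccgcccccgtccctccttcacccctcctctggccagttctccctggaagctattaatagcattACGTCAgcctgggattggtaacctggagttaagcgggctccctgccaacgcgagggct
Dusp1: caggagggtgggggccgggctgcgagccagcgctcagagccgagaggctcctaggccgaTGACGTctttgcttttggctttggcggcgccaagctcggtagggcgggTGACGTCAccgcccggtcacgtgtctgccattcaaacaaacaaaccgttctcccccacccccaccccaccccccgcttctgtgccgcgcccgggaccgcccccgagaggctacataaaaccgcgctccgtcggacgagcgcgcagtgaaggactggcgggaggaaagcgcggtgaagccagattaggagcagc
Nr4a3: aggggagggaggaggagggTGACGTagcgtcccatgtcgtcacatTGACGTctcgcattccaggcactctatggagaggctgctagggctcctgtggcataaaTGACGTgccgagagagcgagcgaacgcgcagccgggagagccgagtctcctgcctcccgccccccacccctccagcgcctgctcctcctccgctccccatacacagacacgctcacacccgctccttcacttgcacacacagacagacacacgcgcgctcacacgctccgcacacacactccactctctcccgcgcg
The match is a description of letters, and it did not track the ratios: Fos, with a match, was at 0.22, and Nr4a1, with none in this window, at -1.29.

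**Figure D3:**
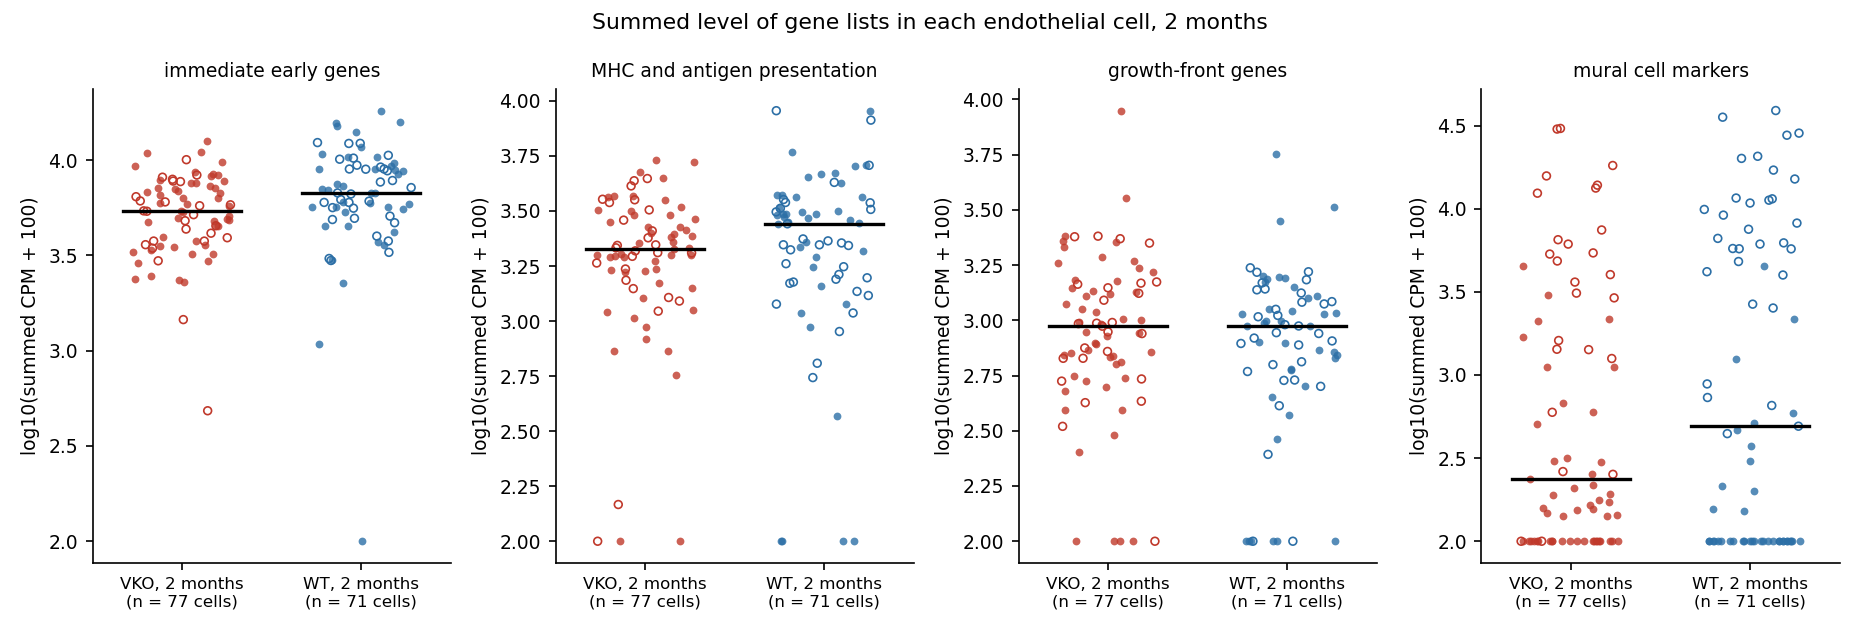
Summed level of 4 gene lists in each 2-month member (y axis, log10 of summed CPM plus 100), VKO left (77 cells) and WT right (71 cells); filled points are marker-clean members, open points the others, and the black line is the median. Immediate early and antigen presentation levels sit lower in VKO with wide overlap (medians 5317 and 6630 CPM, and 2031 and 2662 CPM), growth-front medians are level (840 and 842 CPM), and high mural levels are mostly open points.

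Antigen presentation was lower in VKO members, mildly and across class I genes. Of 13 genes tested 1 was higher and 12 lower (54.4% and 45.6% of all genes), 0 and 2 by 2-fold (6.6% and 3.96% of all genes), with a median of -0.43; in marker-clean members 2 of 11 were higher and 9 lower, with a median of -0.42. B2m, the light chain of every class I molecule, was at 536 CPM in VKO and 723 CPM in WT members (-0.43, -0.60 to -0.26; marker-clean -0.52). The heavy chain genes H2-D1 (565 CPM in VKO, 768 in WT; -0.44) and H2-K1 (317 and 460 CPM; -0.54, marker-clean -0.69) were lower too, although their sequences are so alike that reads may be divided between them. Tap1, the peptide transporter, had 16 UMIs in VKO and 34 in WT members (-1.44, -2.42 to -0.56). Cd74, the class II chaperone, had 15 and 50 UMIs (-2.08), with 52.0% of the WT count in 1 cell. The list median was 0.15 in fibroblast barcodes and -0.20 in mural barcodes. In the fibroblast barcodes all 10 macrophage markers were higher in VKO, with a median of 3.08. The part of macrophage RNA in the 0.15 was not tested. Marker-clean members leave out the WT barcode with most macrophage UMIs, and in them the macrophage list stood at 22.9 CPM in VKO and 10.4 CPM in WT.

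Genes of the NF-kB and cytokine response were lower as well. Of 15 tested, 3 were higher and 12 lower (54.4% and 45.6% of all genes), 2 and 3 by 2-fold (6.6% and 3.96% of all genes), with a median of -0.50. Marker-clean members gave 3 and 8 of 11 (50.8% and 49.2% of all genes), with a median of -0.58. Cebpb, a transcription factor of the acute phase response, had 108 UMIs (100 CPM) in 33 VKO members and 252 UMIs (303 CPM) in 47 WT members, -1.59 (-1.93 to -1.26), and -1.88 in marker-clean members. Nfkbia, the inhibitor that NF-kB induces against itself, was at 476 CPM in VKO and 793 CPM in WT members (-0.74; marker-clean -0.58). Icam1, the leukocyte adhesion molecule, was at -0.22 in all members and at -0.69 (-1.11 to -0.27) in marker-clean ones, whereas Cebpd, at -0.74 in all members, was at 0.02 in marker-clean ones. The list median in fibroblast barcodes was -0.29. Interferon-response genes showed 4 of 24 higher and 20 lower (54.4% and 45.6% of all genes), with a median of -0.50. In marker-clean members 8 and 6 of 14 were higher and lower (50.8% and 49.2% of all genes), with a median of 0.02. A single WT member held 277 of 277 Cxcl10 UMIs, 76 of 89 Gbp2 UMIs and 442 of the 3745 UMIs of the whole interferon list in WT.

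The VEGF axis was near level. Of 12 VEGF receptors and transducers 10 were higher and 2 lower in VKO members (54.4% and 45.6% of all genes), with a median of 0.15. In marker-clean members 5 and 6 of 11 were higher and lower (50.8% and 49.2% of all genes), with a median of -0.08. The VEGF co-receptor Nrp1 was at 826 CPM in VKO and 719 CPM in WT members (0.20, 0.05 to 0.35; marker-clean 0.36). Tek, the receptor for angiopoietins, had 514 UMIs (477 CPM) in 65 VKO members and 224 UMIs (269 CPM) in 52 WT members, 0.82 (0.60 to 1.06), and 0.60 (0.29 to 0.92) in marker-clean ones. Its relative Tie1 was at 409 CPM in VKO and 382 CPM in WT members (0.10). The 9 angiopoietin and Tie genes had a median of 0.03.

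Growth-front genes, which mark sprouting tip cells, were higher in VKO as a sum but not in the typical cell. Of 10 tested, 8 were higher and 2 lower (54.4% and 45.6% of all genes), 2 and 0 by 2-fold (6.6% and 3.96% of all genes), with a median of 0.38. In marker-clean members 9 of 9 were higher, 4 by 2-fold, with a median of 0.98 (50.8% of all genes higher there, 3.49% by 2-fold). Without the marker-clean member with most list UMIs in each library, 7 of 9 were higher and the median was 0.30. Dll4, the Notch ligand that tip cells show to their neighbours, had 84 UMIs (77.9 CPM) in 32 VKO members and 31 UMIs (37.2 CPM) in 22 WT members, 1.05 (0.46 to 1.71), and 1.61 in marker-clean members. Pdgfb, which recruits pericytes, was at 294 CPM in VKO and 208 CPM in WT members (0.50, 0.23 to 0.78; marker-clean 0.47), and Nid2, a basement membrane link, at 90.9 and 50.4 CPM (0.84). Apln, the apelin peptide of tip cells, had 53 UMIs in 7 VKO members and 9 UMIs in 4 WT members (2.12, 1.15 to 3.39), and its ratio turned to -0.54 when cells were thinned to equal depth. Mcam was lower in VKO in all members (206 and 275 CPM; -0.42) and at 0.07 in marker-clean ones.

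A large share of that sum came from 1 cell. A VKO member of 29546 UMIs with all 10 endothelial markers, none of the other-cell limits reached and all 12 growth-front genes detected held 260 of the 1272 growth-front UMIs (20.4%), among them 59 for Esm1, 30 each for Nid2 and Trp53i11, 26 for Angpt2, 21 for Apln and 16 for Adm. Without the member with most list UMIs in each library the list median was 0.22. Per cell the median was 840 CPM in VKO and 842 CPM in WT members, and 790 and 846 CPM in marker-clean members. Cells of the 2 libraries thus overlapped almost fully, apart from this one at 8800 CPM against a highest WT value of 5544 CPM.

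Among Notch genes, 6 of 11 were higher and 5 lower, with a median of 0.03. The ligand Jag1 had 81 UMIs in VKO and 33 in WT members (0.91, 0.32 to 1.55), and the feedback gene Nrarp 80 and 39 UMIs (0.65, 0.09 to 1.25). The target Hes1, by contrast, was lower in VKO, at 811 CPM against 980 CPM (-0.27, -0.41 to -0.13; marker-clean -0.45).

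Transcription factors that define the endothelium were more often higher in VKO, but not as a sum. Of 19 tested, 13 were higher and 6 lower (54.4% and 45.6% of all genes), with a median of 0.19, and the counts were the same in marker-clean members with a median of 0.21. The summed list stood at 6129 CPM in VKO and 6485 CPM in WT members (-0.082, -0.134 to -0.029; marker-clean -0.077). Sox18, of vessel and lymphatic specification, was 564 CPM in VKO and 351 CPM in WT members (0.68, 0.48 to 0.89; marker-clean 0.33), and Sox7 114 and 68.5 CPM (0.73; marker-clean 0.21). Elk3, an ETS factor, had 337 UMIs (313 CPM) in VKO and 150 UMIs (180 CPM) in WT members (0.79, 0.51 to 1.08; marker-clean 0.72), and Mef2c 465 and 322 CPM (0.53, 0.31 to 0.75). Foxf1, a forkhead factor, went the other way, with 23 UMIs in 17 VKO members and 52 UMIs in 28 WT members (-1.53, -2.33 to -0.82; marker-clean -2.01), as did Epas1, the hypoxia-inducible factor of vessels (1244 and 1536 CPM; -0.30). In the thinned comparison the list median was -0.08. Zfp36l1, an RNA-binding protein that destabilises transcripts such as Vegfa, listed with the Wnt and norrin genes, was at 411 CPM in VKO and 253 CPM in WT members (0.70, 0.46 to 0.94; marker-clean 1.10). In that list 10 of 12 genes were higher (54.4% of all genes), with a median of 0.15. Id3, a target of BMP signalling, was at 1281 CPM in VKO and 962 CPM in WT members (0.41), and Ltbp4, which tethers latent TGF-beta, at 161 and 287 CPM (-0.83, -1.12 to -0.54; marker-clean -1.19).

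**Figure D4:**
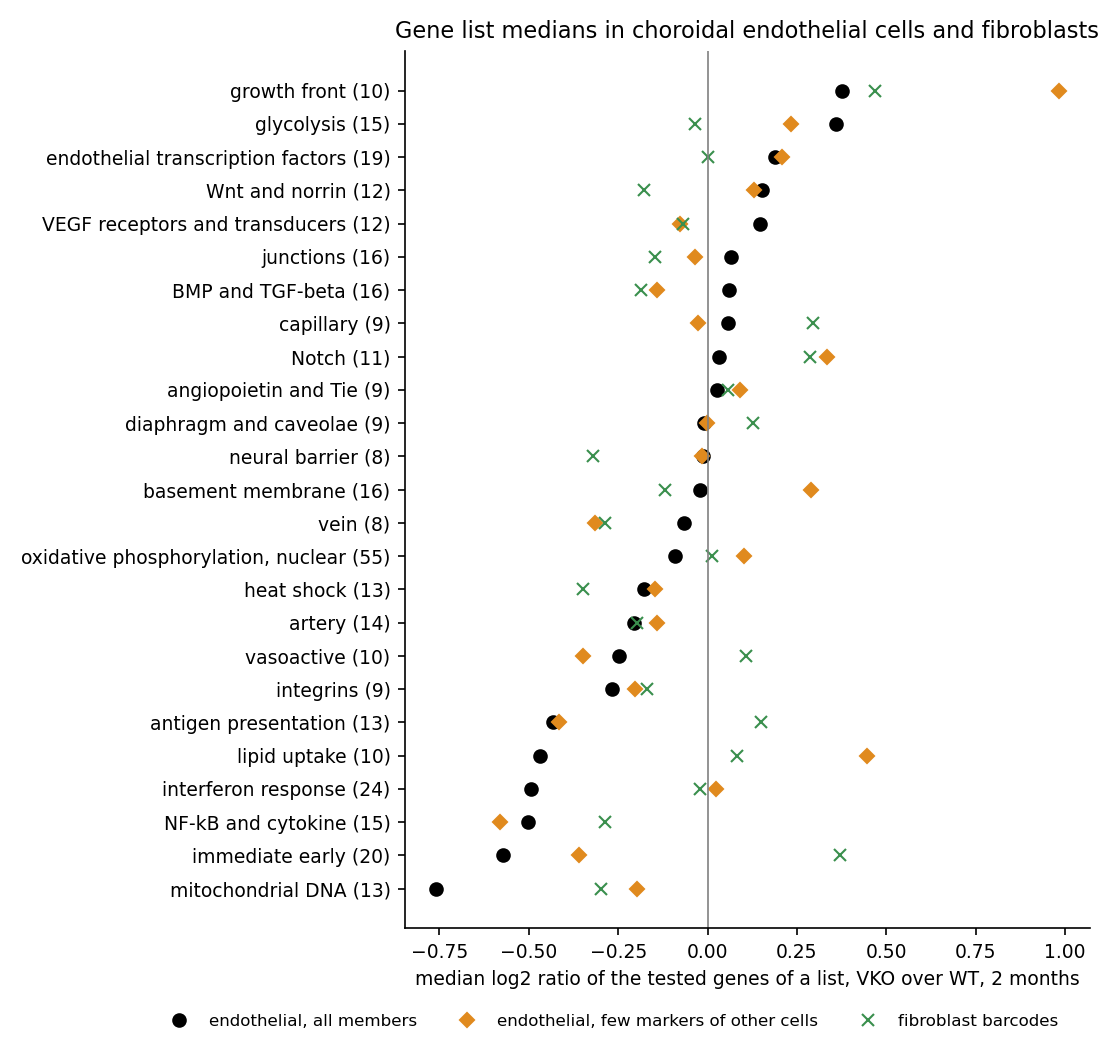
Median log2 ratio of VKO over WT at 2 months (x axis) for gene lists (y axis, number of genes tested in all members in brackets), in all endothelial members (black circles), in marker-clean members (orange diamonds) and in fibroblast barcodes (green crosses, 133 VKO and 100 WT). Immediate early genes lie at -0.57, -0.36 and 0.37 in that order and antigen presentation at -0.43, -0.42 and 0.15, whereas interferon, lipid uptake and mitochondrial DNA lists shift toward or past 0 in marker-clean members. The fibroblast barcodes held more macrophage RNA in VKO (list median 3.08).

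The fenestration and caveola genes, which serve exchange, were level. Of 9 tested 3 were higher and 6 lower, none by 2-fold, with a median of -0.01. Plvap had 1774 UMIs in 64 VKO members and 1405 in 52 WT members (-0.04, -0.14 to 0.07). The caveola genes Cav1 (225 CPM in VKO, 289 in WT; -0.36) and Cavin1 (237 and 295 CPM; -0.32) were at 0.00 and 0.02 in marker-clean members, and Ehd4, an ATPase of caveolar necks, was at 0.02. Among capillary genes, 5 of 9 were higher and 4 lower, with a median of 0.06. Igfbp3 had 2559 UMIs (2374 CPM) in VKO and 1125 UMIs (1351 CPM) in WT members, 0.81 (0.71 to 0.92), and 0.92 in marker-clean members, with 17.4% of the VKO count in 1 cell. Gpihbp1, which anchors lipoprotein lipase in capillaries, was at 148 CPM in VKO and 126 CPM in WT members (0.23), and at 169 and 48.5 CPM in marker-clean ones (1.75, 0.98 to 2.72). Rgcc, a VEGF-induced cell cycle regulator (1543 CPM in VKO, 1925 in WT; -0.32), and Sgk1, a salt- and stress-regulated kinase (552 and 842 CPM; -0.61), were lower in VKO, with marker-clean values of -0.35 and -0.61.

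Vein genes had a median of -0.07 (3 of 8 higher), and of -0.32 with 0 of 7 higher in marker-clean members. Tmem252, in the vein list, had 85 UMIs (78.8 CPM) in 33 VKO members and 140 UMIs (168 CPM) in 39 WT members, -1.09 (-1.50 to -0.69), and -1.06 in marker-clean members. Artery genes had a median of -0.21 (5 of 14 higher). With each member weighted equally both turned, to 0.30 for vein genes (7 of 8 higher) and 0.11 for artery genes (10 of 14 higher). Mgp, which blocks BMP and calcification, was at 1869 CPM in VKO and 2407 CPM in WT members (-0.36), and the chemokine Cxcl12 at 666 and 721 CPM (-0.11; marker-clean 0.32). Fbln5, an elastic fibre gene, had 17 UMIs in VKO and 37 in WT members (-1.47).

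Genes of vascular tone leaned lower in VKO, with 3 of 10 higher, 7 lower and a median of -0.25. Edn1 had 206 UMIs (191 CPM) in 33 VKO members and 276 UMIs (332 CPM) in 28 WT members, -0.79 (-1.06 to -0.53), and -1.27 (-1.61 to -0.94) in marker-clean members. The receptor Ednrb was at 230 CPM in VKO and 286 CPM in WT members (-0.31), and at 214 and 405 CPM in marker-clean ones (-0.92, -1.29 to -0.55). Barrier genes of neural vessels had a median of -0.01: Abcg2, an efflux pump, was at 410 CPM in VKO and 289 CPM in WT members (0.50; marker-clean 0.16), and Slc2a1 at 532 and 727 CPM (-0.45, -0.62 to -0.28; marker-clean -0.38). Edn1 and Slc2a1 both varied strongly along the artery genes within each library, and the part of the mix of vessel types in these ratios was not tested.

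The matrix of the vessel wall was about level in all members and leaned higher in VKO in marker-clean ones. Of 16 basement membrane genes 8 were higher and 8 lower, with a median of -0.02, against 12 and 4 and a median of 0.29. Col18a1, whose fragment endostatin inhibits vessel growth, was 1 of the lower genes in both, at 94.6 CPM in VKO and 204 CPM in WT members (-1.11, -1.48 to -0.75) and 91.6 and 256 CPM in marker-clean ones (-1.48, -2.01 to -0.96). Col4a1, the main collagen of the layer, was at 977 CPM in VKO and 930 CPM in WT members (0.07; marker-clean 0.21), and Sparc, a matrix binding protein, at 1591 and 1572 CPM (0.02; marker-clean 0.56). Sparcl1 was at -1.15 in all members and 0.53 in marker-clean ones. Integrins had 1 of 9 higher (54.4% of all genes) and a median of -0.27 (marker-clean -0.20).

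Genes of lipid uptake and of the LDL receptor family, to which Vldlr belongs, rested on few cells. Lipid uptake genes had a median of -0.47 in all members and 0.45 in marker-clean ones. Fabp4, a fatty acid carrier of capillaries, had 70 UMIs in 8 VKO members and 180 in 7 WT members, with 55.7% and 76.7% in 1 cell each. Scarb1, the HDL receptor, was spread over more cells, with 286 UMIs (265 CPM) in 54 VKO members and 157 UMIs (189 CPM) in 42 WT members (0.49, 0.21 to 0.78; marker-clean 0.45). Cd300lg was at 112 CPM in VKO and 196 CPM in WT members (-0.80, -1.15 to -0.45). The LDL receptor family had 3 of 8 higher, 5 lower and a median of -0.23. Lrp1 was at -1.20 in all members and at 0.20, from 8 and 3 UMIs, in marker-clean ones.

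Energy genes depended on which members were counted. The 13 protein genes of mitochondrial DNA summed to 26912 CPM in VKO and 45476 CPM in WT members, with 1 higher, 12 lower and a median of -0.76. In marker-clean members they summed to 27034 and 32128 CPM, with 3 higher, 10 lower and a median of -0.20, and the medians were -0.30 in fibroblast and -0.39 in mural barcodes. mt-Cytb, a subunit of complex III, was at -0.92 in all and -0.13 in marker-clean members, and mt-Co2, of complex IV, at -0.82 and -0.31. The 55 nuclear genes of oxidative phosphorylation had a median of -0.09 (15 higher, 40 lower) in all and 0.10 (37 higher, 17 lower of 54) in marker-clean members. Glycolysis genes had a median of 0.36, and of -0.09 without the barcode with the rod genes, which carried 97.8% of the Hk2 counts. Heat shock genes had 2 of 13 higher and a median of -0.18; Hspb1, a small chaperone, was at 337 CPM in VKO and 533 CPM in WT members (-0.66).

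Dividing cells were not detectable at this depth. Mki67 had 2 UMIs in VKO and 0 in WT members, and Top2a none in either. Cdkn1a, the p21 inhibitor of the cell cycle, was at 460 CPM in VKO and 989 CPM in WT members (-1.10, -1.27 to -0.94), found in 58 VKO and 60 WT cells, and at 510 and 984 CPM in marker-clean members (-0.95, -1.18 to -0.71). Stmn1, a microtubule regulator abundant in dividing cells, was at 160 CPM in VKO and 81.7 CPM in WT members (0.97, 0.56 to 1.40), and at 211 and 100 CPM in marker-clean members (1.05, 0.48 to 1.70). In the other kept barcodes both genes were level, with log2 ratios of 0.00 for Cdkn1a and 0.01 for Stmn1.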

How the data were processed

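The authors deposited unnormalized UMI counts, whole numbers for each gene and barcode. Per the file headers they came from Cell Ranger 6.0.2 at 1 month and 7.0.1 at 2 months, so age and software version cannot be told apart. Cell Ranger 3.0, Seurat 4.0 and mm9 stand in the submitters' processing notes. Of 32285 gene identifiers 32158 (99.6%) were found in GENCODE M21 (GRCm38), which gave positions. No source states whether intron reads or strand were used.

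Counts were summed over members per library and scaled to CPM. Log2 ratios used 0.5 added counts and genes with at least 30 UMIs over both 2-month libraries, with exact conditional binomial 95% intervals. With 1 library per group no test was possible. Called means 2-fold apart. Named genes were at least 2-fold apart, in at least 10% of members of the higher library, with no more than 1 of 3 parts of its UMIs in 1 cell and a CPM of at least 0.25 of that library's other barcodes; the 12 per direction with the interval farthest from 0 were taken. The 20 genes with the largest smaller ratio of members over other barcodes, and the 2 most changed and 2 most abundant genes of each list, were also named. Other genes were chosen after their values were seen. The members, the rule and the gene lists were chosen with earlier results of these data known. Scrublet marked 26 of 6555 kept barcodes (0.397%), too few to have worked, and no doublet was removed; an alternative removed the top 5% of scores. Alternatives changed filters, depth, scaling, weighting and added counts. Some genes that the rule names are not reported here. The calculation was tested on simulated data. Scripts used Python 3.11.15, scanpy 1.11.5, scipy 1.17.1, numpy 2.4.6, matplotlib 3.10.9 and pandas 2.3.3.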

Additional observations from a re-analysis of the deposited data

How the results depend on the processing

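No paired analysis was possible because each group was 1 library with no replicate number, so no replicate was left out either. Limits are 1 library per group, the barcode that carried rod genes, the unequal mural markers and the unequal depth of the marker-clean sets. Genes at under about 30 UMIs were not assessed, and the 5 WT members at 1 month allow no comparison.

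The number of genes at least 2-fold higher in VKO members was 155 with at least 6 of 10 markers, 176 in marker-clean members, 46 after thinning to 2000 UMIs, 1065 with at least 10 UMIs, 163 with at least 100 UMIs and 177 without the deepest VKO barcode (an alternative added after seeing the data), against 531. The number at least 2-fold lower was 131 in marker-clean members, 71 after thinning, 489 with each member weighted equally, 705 with at least 10 UMIs and 107 with at least 100 UMIs, against 319. The member shares of marker-clean cells were 4.47% in VKO and 1.91% in WT, and 12 of the 24 named genes kept a 2-fold difference there, counting those with more than 3 UMIs in either library. Those cells took part in naming the genes, so the 12 are no separate check.

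The shares of VKO members with at least 2 capillary genes were 100% with at least 1000 genes, with at least 6 markers, with RPE genes under 0.1% and in marker-clean members, and 92.8% after thinning; with at least 3 genes of a kind the share was 92.2%. In WT the capillary share was 86.1% with at least 3 markers. Artery shares were 76.8% (thinned) and 84.4% (at least 3 genes) in VKO, and 69.2% (marker-clean) and 70.4% (at least 3 genes) in WT. Vein shares were 55.1% (thinned) in VKO and 88.5% (at least 1000 genes), 60.7% (thinned) and 59.2% (at least 3 genes) in WT. Growth-front shares were 50.7% (thinned) and 63.6% (at least 3 genes) in VKO and 45.9% and 63.4% in WT. Barrier shares were 97.1% (at least 1000 genes), 65.2% (thinned) and 79.2% (at least 3 genes) in VKO and 93.4%, 55.7% and 69.0% in WT. Lymphatic shares were 0% (thinned) and 0% (at least 3 genes) in VKO and 0% and 1.41% in WT. The other 139 values, of these shares, of the member shares and of the counts of genes and lists, stayed within their limits. For counts the limit was a set fold change, not an interval.

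Of the single genes and lists that lay at least 2-fold apart, 15 values changed side; among all single genes and lists 2739 stayed within their limits and 339 moved beyond them. No ratio was taken where neither library had more than 3 UMIs. The changes of side in marker-clean members were Gdpd3 (-0.028), Tpm2 (2.62), Gsn (2.09), Tagln (4.80), Rgs5 (0.66), Sparcl1 (0.53), Fabp4 (3.47), Lrp1 (0.20) and Gbp2 (0.36). Cd74 was at 0.37 with at least 3 markers. Sag was at -0.70 with at least 6 markers and at -0.58 without the deepest VKO barcode. Fbln1 was at 1.67 without the top Scrublet scores, Apln at -0.54 after thinning, and the rod list at -0.24 without the member holding most of its UMIs.

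List medians under 2-fold crossed 0 more often. Of 34 lists, 26 did so in at least 1 alternative, 16 of them with a main median within 0.1 of 0. Lipid uptake ranged from -0.59 to 0.72, glycolysis from -0.17 to 0.86, artery genes from -0.38 to 1.69, vein genes from -0.92 to 0.32, VEGF receptors and transducers from -0.32 to 0.68 and interferon genes from -0.66 to 0.11. The 8 on 1 side throughout were the immediate early, antigen presentation, NF-kB, heat shock, mitochondrial DNA, growth-front, angiopoietin and apelin lists. The cause of these changes was not tested.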

Other observations

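Several genes of the 2-month members were carried by single cells. Hk2, hexokinase 2, had 136 UMIs in VKO and 2 UMIs in WT members, with 97.8% of the VKO count in the deepest barcode. A WT member of 17201 UMIs held 138 of 180 Fabp4 UMIs and 30 of 39 Cd36 UMIs, both fatty acid carriers of metabolically active capillaries, among 225 of the 882 lipid uptake UMIs of the library. These cells passed the same marker rule as the others, and they are given as values only.

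The 22 VKO members of 1 month differed from the 2-month members in depth. Their median was 4416 UMIs and their Malat1 median, a nuclear RNA, 50656 CPM, against 11549 CPM in the 2-month VKO members. At least 2 rod markers were detected in 13 of the 22, and in 69.4% of the other kept barcodes of that library. Edn1 stood at 1213 CPM in VKO and 230 CPM in WT members of 1 month, on 132 and 5 UMIs.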
